A study of Arabidopsis thaliana with 4 samples.

Results

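A set of 10 genes of the N6-methyladenosine (m6A) pathway were described in poly(A) RNA sequencing of whole *Arabidopsis thaliana* Col-0 seedlings, the wild type against the mutant trm4b-4. The members were the rows whose locus identifier was that of *MTA*, *MTB*, *FIP37*, *VIR*, *HAKAI*, *ALKBH9B*, *ALKBH10B*, *ECT2*, *ECT3* or *ECT4*. All 10 were found among the 33664 features of the deposited files. Seedlings of both genotypes were 9 days old and grown on MS plates in long days, and each genotype had 2 libraries. Wild-type libraries carried no mutation named in the labels. The mutant is named for *TRM4B* (AT2G22400), which encodes an RNA 5-methylcytosine methyltransferase. The genotype field of its libraries reads tm4b-4 and the titles read trm4b-4. The labels give neither the nature of the allele nor the origin of the 2 libraries of a genotype, so the error behind each p-value is that between libraries and may be technical alone.

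N6-methyladenosine is the most common internal mark of messenger RNA. In plants a nuclear writer complex places it, with *MTA* as the catalytic subunit, *MTB* as its methyltransferase-like partner, and *FIP37*, *VIR* and *HAKAI* as further subunits. Demethylases of the ALKBH family, here *ALKBH9B* and *ALKBH10B*, can remove it, and proteins with a YTH domain, here *ECT2*, *ECT3* and *ECT4*, bind the marked RNA and affect its fate. Loss of *MTA*, *MTB*, *FIP37* or *VIR* is known to arrest the embryo, *ALKBH10B* is known for its part in flowering time, and the 3 *ECT* genes are known for leaf timing and trichome shape.

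The libraries held between 21931590 and 26390263 fragments, and 18785 to 18888 genes in each were at 1 FPKM or above (FPKM being fragments scaled to gene length and library total). *TRM4B* itself stood at 29.7 and 28.9 FPKM in the wild-type libraries and at 86.3 and 87.1 FPKM in those labelled trm4b-4. The targeted gene was thus higher under the mutant label, and the directions given for all genes follow the labels. Leaf genes (*RBCS1A*, 7341 to 7857 FPKM) and root genes (*CASP1*, 22.4 to 25.6 FPKM) were both present, and of the floral genes *AP3* was listed at 0, *AG* was at most 0.0551 FPKM and *PI* was at 1.87 to 2.60 FPKM. Of 4 leaf genes 3 were higher and 1 was lower under the mutant label in limma's test described below. In that test 19.2% of all tested genes were called higher and 15.1% lower. Only 1 leaf gene was called higher with quantile normalization or with no mean-variance trend, and none was called against a fold of 1.5. None of 4 root genes passed the limma test (1 did at an unadjusted p under 0.05 and 0 with voom, and 1 was called lower under 8 of 16 alternatives). Of 3 seed storage genes *SESA1* was listed at 0 and the others were higher under the mutant label, *CRA1* at a mean of 2.13 against 0.103 FPKM (n = 2 each, log2 change 1.51, limma adjusted p = 6.57e-05) and the untested *CRC* at 0.708 against 0.0121 FPKM. *CRA1* passed the filter on low values only through the libraries labelled trm4b-4. Genes induced within minutes by touch or stress were lower in 6 of 6 cases under the mutant label, where 15.1% of all tested genes were. Their summed levels were 697 FPKM in both wild-type libraries and 96.3 and 95.8 FPKM in the others. Against a fold of 1.5, 5 of the 6 kept the call. This list, like the others here, was chosen with earlier results of these data known. Of 4 tested clock genes *CCA1*, *PRR9* and *GI* were higher and *TOC1* was lower, and none of the 4 was called against a fold of 1.5. *PRR9* reached 1 FPKM only under the mutant label, at 2.26 and 2.08 against 0.667 and 0.764 FPKM in wild type. Its place in the test thus rests on its high group, as for *CRA1*. The part of handling, time of harvest and tissue make-up in the results below was not tested.

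The 3 readers are paralogs, so the coding stretch around the longest run of letters that any of the 10 genes shared with another member is shown, to let a reader see how far fragments of one can be told from those of another. The stretch was read from the spliced RefSeq transcripts of TAIR10.1, 5′ to 3′. It lies at chr3:4385633-4385793 on the minus strand for *ECT2*, chr5:24557876-24558027 on the minus strand for *ECT3* and chr1:20722014-20722177 on the plus strand for *ECT4*, and in each gene an intron interrupts it. Capitals mark bases that differ from *ECT2*.
ECT2: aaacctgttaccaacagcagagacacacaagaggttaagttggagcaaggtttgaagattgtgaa
ECT3: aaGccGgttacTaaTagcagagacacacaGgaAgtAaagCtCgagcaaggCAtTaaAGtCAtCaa
ECT4: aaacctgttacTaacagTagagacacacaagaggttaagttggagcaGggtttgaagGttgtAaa

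Of these 65 bases *ECT4* differed from *ECT2* at 5 and *ECT3* at 17. The stretch was chosen around a run shared by *ECT2* and *ECT4*, so it favours that pair and does not rank the paralogs. The longest identical run was 29 bases between *ECT2* and *ECT4* (agagacacacaagaggttaagttggagca) and 18 bases between *ECT2* and *ECT3* (agtggacaatttgttggt) and between *ECT3* and *ECT4* (tcgtacagtgaagatgat). *ECT3* shared its longest run, of 26 bases, with *ECT1*. Among the writers *MTA* shared 29 bases with AT1G37010, and *HAKAI* shared no run of 20 or more bases with any gene. How fragments that match several genes were counted is not given in the sources used here.

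In the libraries labelled trm4b-4, 4 of the 10 genes were higher and none was lower: the eraser *ALKBH10B* and the readers *ECT2*, *ECT3* and *ECT4*. None of the 5 writer genes passed the limma test (2 did with voom on recovered fragments), and neither did *ALKBH9B*. The test was limma on log2(FPKM + 1), with Benjamini-Hochberg adjustment over all 19027 genes that reached 1 FPKM in at least 2 libraries. Across those genes 34.3% passed, 19.2% higher and 15.1% lower, so that 4 calls among 10 genes is close to the share of the whole table. All 10 genes were above 5 FPKM in every library and none owed its place in the test to a single genotype. At an unadjusted p under 0.05 the count was 6 of 10, the other two being *MTA* and *MTB*, where 44.3% of all tested genes passed. The same 6 genes had both mutant-labelled libraries above both wild-type libraries, where 39.4% of all tested genes did (68.4% had no overlap in either direction). The median log2 change of the 10 genes was 0.143, and that of all tested genes was 0.0313.

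The levels spanned a wide range. In wild type *ECT2* was highest at 126 FPKM, followed by *ECT3* at 43.3, *ALKBH10B* at 34.8 and *ECT4* at 19.3 FPKM, each apart from the next in both libraries. The 5 writers lay together between 9.95 FPKM for *MTA* and 12.3 FPKM for *FIP37*. Within them *FIP37* overlapped *HAKAI*, *HAKAI* overlapped *VIR*, and *MTB* overlapped *MTA*. *ALKBH9B* was lowest at 5.57 FPKM. Under the mutant label *ALKBH10B* (47.4 FPKM) overlapped *ECT3* (47.5 FPKM), which stood apart in wild type, and all 5 writers formed an unbroken chain of overlaps from *VIR* at 12.2 to *MTB* at 11.4 FPKM. These comparisons between genes are per length and rest on the lengths the authors used.

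**Figure D1:**
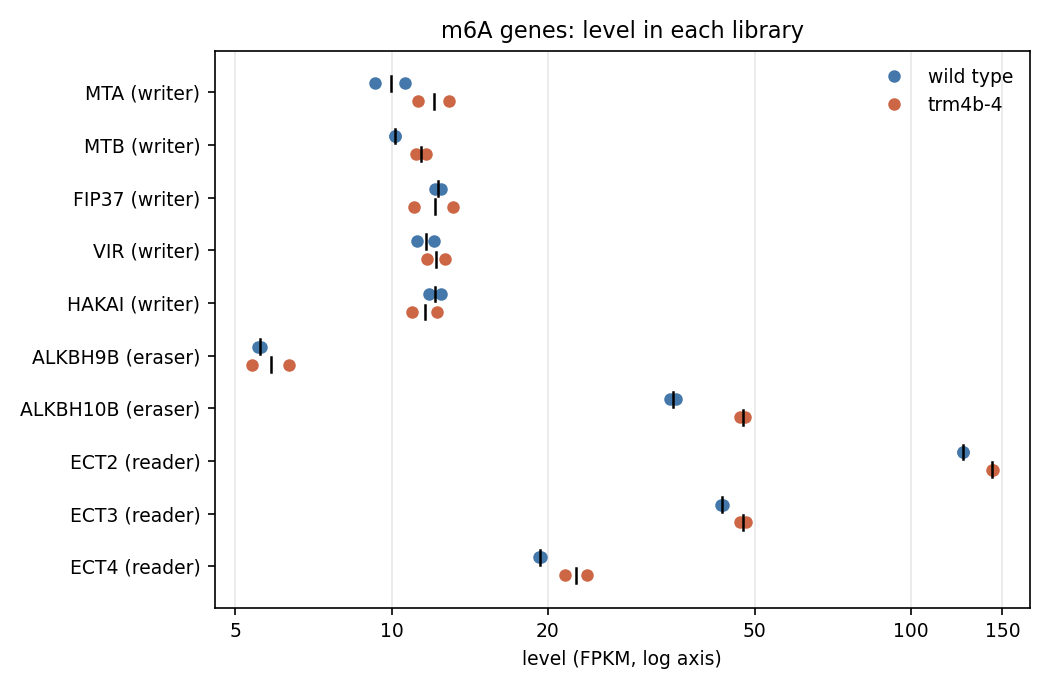
Level of each of the 10 m6A genes in each library, in FPKM on a log axis, with wild type in blue, trm4b-4 in orange and a black bar at the mean of the 2 libraries. The orange points lie to the right of the blue ones without overlap for *MTA*, *MTB*, *ALKBH10B*, *ECT2*, *ECT3* and *ECT4*, and the 5 writers lie between 9.29 and 13.2 FPKM in all 4 libraries.

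*MTA* (AT4G10760, chromosome 4, 6619817 to 6623381 in TAIR10.1), the catalytic methyltransferase, was at 9.29 and 10.6 FPKM in wild-type replicates 1 and 2 and at 11.2 and 12.9 FPKM in trm4b-4 replicates 1 and 2. Both mutant-labelled libraries were above both wild-type ones, but the gap between the groups was smaller than the distance between the libraries of either genotype. Its log2 change of 0.25 (SE 0.088, 95% interval 0.05 to 0.46) had an unadjusted p of 0.0204 and a limma adjusted p of 0.057. *MTA* passed the threshold under 7 of 16 alternative settings, among them the stricter filter of 5 FPKM (adjusted p = 0.0461) and voom on recovered fragments (adjusted p = 0.00272), with log2 changes from 0.161 to 0.345 over all 16. The lowest of these came without wild type replicate 1 (0.166) and without trm4b-4 replicate 2 (0.161), the highest without the other library of each genotype. The gene was read with 546 to 662 fragments a library, a counting error of about 4.28% at the lowest. It overlaps AT4G10750 on the opposite strand by 123 bases, and that gene was at 0.974 times its wild-type level (log2 change -0.03, limma adjusted p = 0.682).

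*MTB* (AT4G09980, chromosome 4, 6247735 to 6252314), which forms a heterodimer with *MTA*, had wild-type libraries that were nearly equal, at 10.13 and 10.14 FPKM. The libraries labelled trm4b-4 were at 11.1 and 11.6 FPKM, both above the wild type. The log2 change was 0.15 (SE 0.062, 95% interval 0.01 to 0.30), with an unadjusted p of 0.0382 and a limma adjusted p of 0.0922. It passed in 1 of 16 alternatives, voom on recovered fragments (adjusted p = 0.012). The ratio of *MTA* to *MTB* within a library was 0.918 and 1.05 in wild type and 1.01 and 1.11 under the mutant label. The genotypes overlapped in this ratio, which stayed near equal levels of the 2 transcripts throughout. *MTB* overlaps AT4G09970 on the opposite strand by 58 bases, and the log2 change of that gene was -0.01 (limma adjusted p = 0.944).

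*FIP37* (AT3G54170, chromosome 3, 20056664 to 20059583), the plant counterpart of the animal subunit WTAP, was at 12.1 and 12.4 FPKM in wild type and at 13.2 and 11.1 FPKM in trm4b-4. Its mutant-labelled libraries lay on either side of the wild type. The 95% interval of its log2 change ran from -0.21 to 0.17 around -0.02 (limma adjusted p = 0.853).

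*VIR* (AT3G05680, chromosome 3, 1660523 to 1672608), a large scaffold subunit related to Virilizer, was at 11.2 and 12.1 FPKM in wild type and at 11.7 and 12.7 FPKM under the mutant label. The genotypes overlapped, and the interval of the log2 change was -0.10 to 0.22 (limma adjusted p = 0.544). *HAKAI* (AT5G01160, chromosome 5, 53856 to 56052), a RING-type E3 ubiquitin ligase of the complex, was at 12.4 and 11.8 FPKM in wild type and at 12.2 and 11.0 FPKM in trm4b-4. Its groups overlapped as well, with an interval of -0.22 to 0.10 (limma adjusted p = 0.556). For these 3 accessory subunits the interval of the fold change of FPKM + 1 stayed between 0.856 and 1.16, so a change of 1.5-fold in either direction lay outside it.

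The summed level of the 5 writers was 55.2 and 57.1 FPKM in wild type and 59.4 and 59.2 FPKM in trm4b-4. The highest writer was 1.34 and 1.23 times the lowest in the wild-type libraries, and 1.18 times in both mutant-labelled libraries. This ratio was lower in both mutant-labelled libraries, by a gap smaller than the distance between the wild-type libraries. With 2 libraries against 2 the smallest exact permutation p is 0.333, so these ratios within a library are given as values, with no test.

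Of the erasers, *ALKBH10B* (AT4G02940, chromosome 4, 1306313 to 1311038) rose more than any other of the 10 genes. It was at 34.4 and 35.2 FPKM in wild type and at 47.9 and 46.9 FPKM in trm4b-4. The distance between genotypes was far larger than that between libraries of either one. The level was 36.2% higher (log2 change 0.43, SE 0.037, 95% interval 0.35 to 0.52, limma adjusted p = 6.27e-05). Its change was larger in size than that of 89.6% of all tested genes, and it was called in 15 of 16 alternatives, the exception being the test against a fold of 1.5. That test passed 2.38% of all tested genes and none of the 10.

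*ALKBH9B* (AT2G17970, chromosome 2, 7818818 to 7821387), a cytoplasmic demethylase known for its part in infection by alfalfa mosaic virus, was at 5.53 and 5.60 FPKM in wild type and at 6.35 and 5.38 FPKM in trm4b-4. The mutant-labelled libraries lay on both sides of the wild type, and the interval of the log2 change was -0.15 to 0.28 (limma adjusted p = 0.653). It was read with 244 to 287 fragments a library, the fewest of the 10 genes, which leaves a counting error of 6.4% at the lowest. The level of *ALKBH10B* was 6.21 and 6.29 times that of *ALKBH9B* in wild type and 7.54 and 8.71 times in trm4b-4, without overlap. The difference between these 2 genes in their change was not tested.

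*ECT2* (AT3G13460, chromosome 3, 4384563 to 4388592), the reader with the highest level here, was at 125.7 and 126.2 FPKM in wild type. It was at 143.7 and 143.2 FPKM in trm4b-4, and the libraries of each genotype differed by less than 1 FPKM. This rise of 13.9% (log2 change 0.19, SE 0.024, 95% interval 0.13 to 0.24, limma adjusted p = 0.000641) was small in size but large against the spread, at 8518 to 9412 fragments a library. It was called in 15 of 16 alternatives, all but the test against a fold of 1.5. Its size was near the middle of the table, larger than 62.5% of all tested genes.

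*ECT4* (AT1G55500, chromosome 1, 20719473 to 20722856) shares with *ECT2* the run around which the stretch shown was chosen. It was at 19.2 and 19.3 FPKM in wild type and at 23.8 and 21.6 FPKM in trm4b-4. Both mutant-labelled libraries were higher, with more spread between them than in wild type. It rose by 17.6% (log2 change 0.22, SE 0.057, limma adjusted p = 0.018). Its call was lost without wild type replicate 1 (adjusted p = 0.0711), wild type replicate 2 (0.0645) or trm4b-4 replicate 1 (0.0952), as well as with no mean-variance trend (0.0654).

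*ECT3* (AT5G61020, chromosome 5, 24556994 to 24559936), which shares roles with *ECT2* in leaf development, was at 43.1 and 43.5 FPKM in wild type and at 46.9 and 48.1 FPKM in trm4b-4. The groups did not overlap and the rise was the smallest of the 4, at 9.73% (log2 change 0.13, SE 0.035, limma adjusted p = 0.0215). The call was lost without wild type replicate 1 (adjusted p = 0.0963), wild type replicate 2 (0.0743) or trm4b-4 replicate 2 (0.0957), after median-of-ratios rescaling (log2 change 0.10, adjusted p = 0.0609) and with no mean-variance trend (0.0957). *ECT3* overlaps AT5G61010 on the opposite strand by 50 bases, and that gene had a log2 change of 0.10 (limma adjusted p = 0.259).

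**Figure D2:**
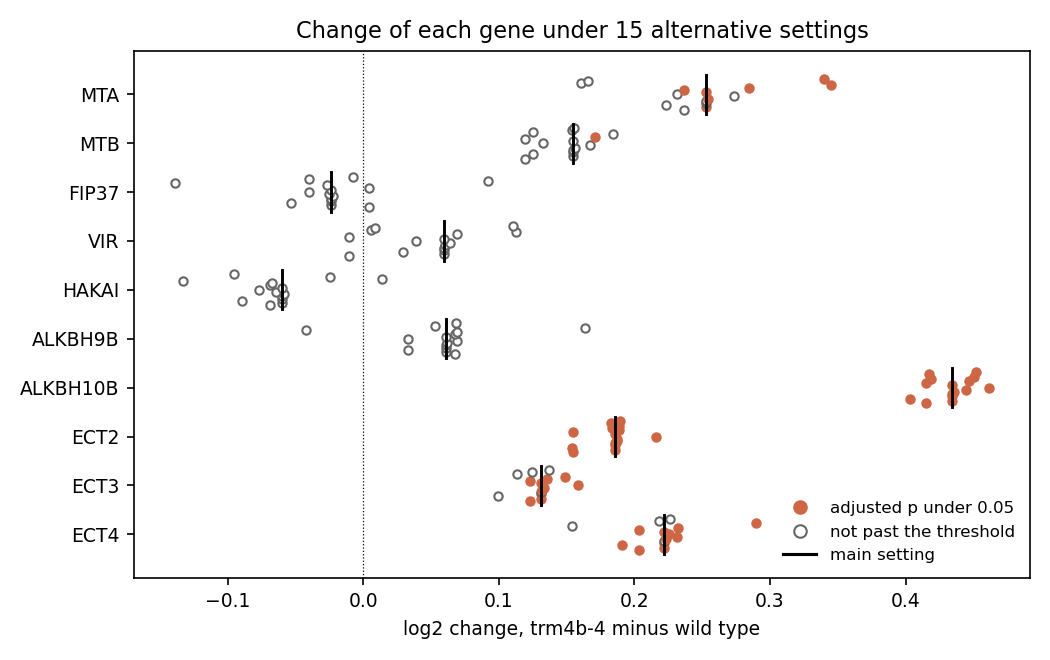
Log2 change of each of the 10 genes, trm4b-4 minus wild type, under the main setting (black bar) and 15 alternatives (points, filled where the adjusted p was under 0.05; the test against a fold of 1.5 is left out because it does not alter the change). *ALKBH10B* and *ECT2* are filled throughout, *MTA*, *ECT3* and *ECT4* are mixed, and *FIP37*, *VIR*, *HAKAI* and *ALKBH9B* have points on both sides of 0 and none filled.

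The 3 readers summed to 188 and 189 FPKM in wild type and to 214 and 213 FPKM under the mutant label. *ECT2* made up 66.8% of that sum in both wild-type libraries and 67.0% and 67.3% in trm4b-4, *ECT3* went from 22.9% and 23.0% to 21.9% and 22.6%, and *ECT4* from 10.2% in both to 11.1% and 10.1%. The share of *ECT2* was slightly higher and that of *ECT3* slightly lower under the mutant label, without overlap, and the shares of *ECT4* overlapped. For *ECT2* and *ECT3* the gap between genotypes was smaller than the distance between the trm4b-4 libraries, and the shares were not tested. The readers together held 3.41 and 3.31 times the summed level of the writers in wild type and 3.61 and 3.60 times in trm4b-4. The *ECT* genes are known to be most active in dividing and young tissue. Of 5 marker genes of dividing cells *KNOLLE* was lower (log2 change -0.24, limma adjusted p = 0.02). The other 4 did not pass, and their changes were positive, with a median log2 change of 0.0823 over all 5. Across all tested genes 15.1% were called lower. The summed level of the 5 was 41.9 and 41.0 FPKM in wild type and 40.7 and 39.1 FPKM in trm4b-4. *KNOLLE*, at a mean of 20.5 FPKM in wild type and 17.2 FPKM in trm4b-4, had the highest level of the 5 and weighed most in that sum. The limma adjusted p of *KNOLLE* was 0.119 when wild type replicate 1 was left out, 0.0909 when the mutant replicate 2 was, 0.0582 with no filter and 0.0708 with no mean-variance trend, so the call was lost in each, and also against a fold of 1.5. In whole seedlings, more cells of a type and more RNA per cell cannot be told apart.

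The other genes with a YTH domain went both ways. Of 10 tested, *ECT7* rose, *ECT6* fell and 8 did not pass, with a median log2 change of 0.0736. With 19.2% of all tested genes higher and 15.1% lower, 1 call in each direction does not exceed the share of the whole table. *ECT6* (AT3G17330) was at 14.2 and 13.3 FPKM in wild type and at 11.1 and 9.07 FPKM in trm4b-4. Both mutant-labelled libraries were lower, and the mean level fell by 26.9% (log2 change -0.42, SE 0.091, limma adjusted p = 0.0085), the only fall among the 13 YTH-domain genes. This fall was called in 15 of 16 alternatives, all but the test against a fold of 1.5. *ECT7* (AT1G48110) was at 14.13 and 14.02 FPKM in wild type and at 17.0 and 16.1 FPKM in trm4b-4 (log2 change 0.22, limma adjusted p = 0.0181). Its call was lost without wild type replicate 1 (adjusted p = 0.0653), wild type replicate 2 (0.0761) or trm4b-4 replicate 1 (0.0909). *ECT6* and *ECT7* share a run of 45 bases, so fragments of the pair may not be fully separated. *CPSF30*, a polyadenylation factor with a YTH domain in its long form, had a log2 change of 0.15 (limma adjusted p = 0.102). *ECT2* alone held 42.0% and 42.4% of the summed YTH-domain level in wild type and 43.6% and 44.1% in trm4b-4.

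**Figure D3:**
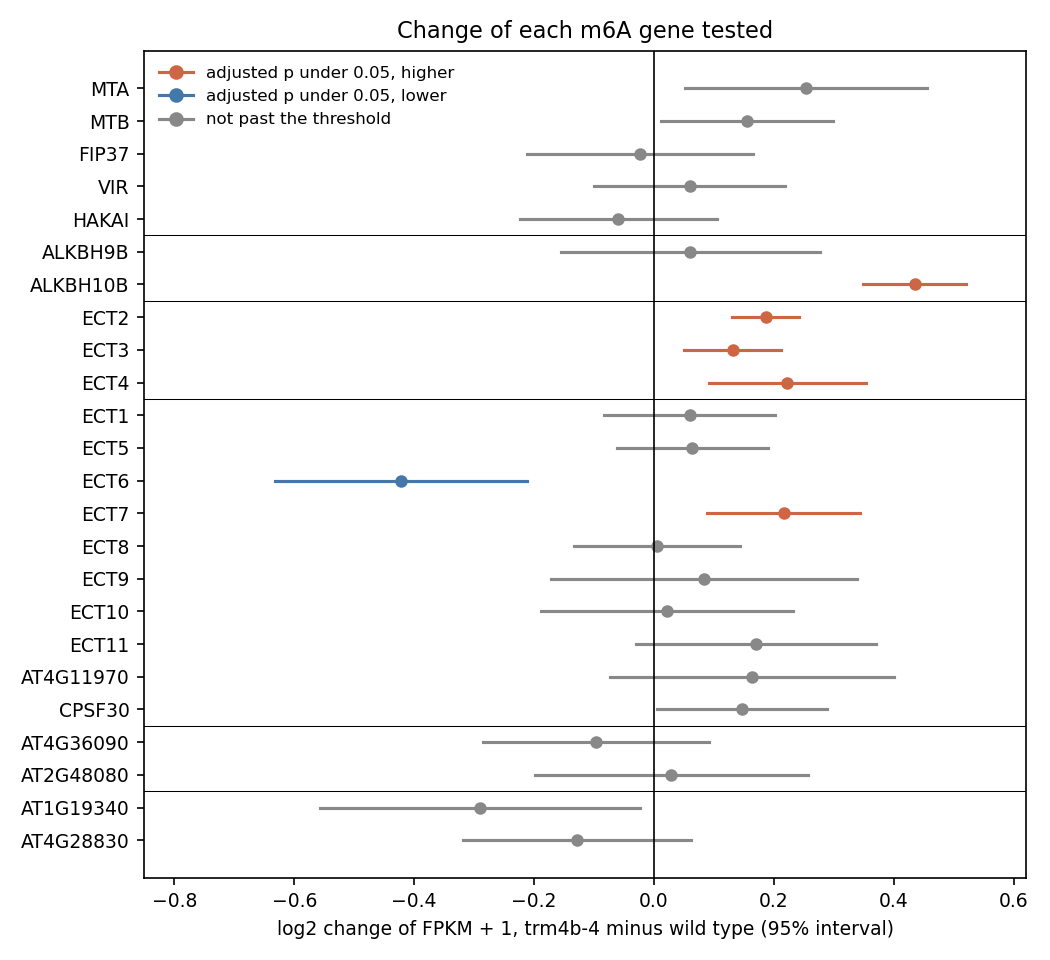
Log2 change of FPKM + 1, trm4b-4 minus wild type, with its 95% interval, for every tested m6A gene, in blocks from top to bottom of writers, erasers, the 3 readers, other YTH-domain genes, relatives of the erasers and other methyltransferase genes. Orange marks *ALKBH10B*, *ECT2*, *ECT3*, *ECT4* and *ECT7*, past the threshold and higher, and blue marks *ECT6*, lower; the intervals of *MTA* and *MTB* begin just above 0.

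Relatives of the erasers and of the writers did not pass the limma test. At an unadjusted p under 0.05 the counts were 0 of 2 and 1 of 2, where 44.3% of all tested genes passed. Of 3 further 2-oxoglutarate-dependent oxygenase genes, listed beside the erasers and named in the reference by locus only, AT4G36090 had a log2 change of -0.10 and AT2G48080 of 0.03 (limma adjusted p = 0.401 and 0.848), and AT1G48980 had 1 fragment in the 4 libraries. Among other methyltransferase genes, AT1G19340, annotated as an MT-A70 family protein as *MTB* is, was at 4.82 and 6.03 FPKM in wild type and at 4.56 and 3.93 FPKM in trm4b-4. Both mutant-labelled libraries were below both wild-type ones, as in 29.0% of all tested genes. The log2 change of AT1G19340 was -0.29 (limma adjusted p = 0.0896), opposite in direction to *MTA* and *MTB*. It passed without wild type replicate 1 (adjusted p = 0.0413) and with voom (0.0352), while without wild type replicate 2 the log2 change was -0.15 (adjusted p = 0.427) and without trm4b-4 replicate 2 it was -0.20 (0.306). AT4G28830 had a log2 change of -0.13 (limma adjusted p = 0.27), and *FIO1*, which encodes a methyltransferase that marks U6 RNA, was under 0.3 FPKM in all 4 libraries and was not tested.

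The methyl donor of the writers is S-adenosylmethionine, and the genes that make and recycle it went both ways. Of 10 tested, 3 rose, 2 fell and 5 did not pass, with a median log2 change of 0.0711. Across all tested genes 19.2% were higher and 15.1% lower, so these counts are close to the share of the whole table. The synthase genes split: *SAM1* fell from 227 ± 2.76 to 190 ± 2.02 FPKM and *SAM2* from 129 ± 1.25 to 114 ± 2.92 FPKM, while *MAT3* rose from 160 ± 1.96 to 193 ± 1.55 FPKM (SD, n = 2 each). Their limma adjusted p values were 8.57e-05, 0.00195 and 8.26e-05. *SAHH1*, whose product clears the by-product that inhibits methyltransferases, rose by 12.5%, and the methionine synthase gene *ATMS1* rose by 23.1% (limma adjusted p = 0.000517 and 7.84e-06). Related genes of this cycle share long runs, 50 bases between *ATMS1* and *ATMS2*, 47 between *SAM1* and *SAM2*, 41 between *MAT3* and *MAT4* and 35 between *SAHH1* and *SAHH2*, and all 5 calls are uncertain to the extent that shared fragments were split. With quantile normalization or voom 5 of these 10 genes rose.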

How the data were processed

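Poly(A) RNA of whole seedlings was sequenced from directional libraries, 2 of wild type and 2 of trm4b-4. The authors deposited FPKM values, 1 file per library. TopHat2 2.0.12, Cufflinks 2.1.1, HTSeq 0.6.1, Cuffdiff and TAIR10 are named in the submitters' processing notes, with no role or order. For the strand setting, multiply matching reads and gene lengths, the choice made is not given in the sources used here. RPKM values would look alike.

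Library totals and whole fragments were recovered from the values: all 24892 features above 0 gave whole fragments within 2e-06 fragments plus a relative 3e-09. Summed over features, the recovered fragments came to between 101.47% and 101.56% of the recovered library totals. Only 1 gene length was possible for each of the 10 genes. It was not an annotated length for any of them, and 3785 features had one that was. Recovered fragments served to state depth and for voom. Counting errors cover counting only.

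Tests used limma 3.58.1 in R 4.3.3 on log2(FPKM + 1), which understates changes of low genes, with a trend of variance on mean and genotype as the sole term. The test was two-sided, called at a Benjamini-Hochberg adjusted p under 0.05 over all genes that reached 1 FPKM in 2 or more libraries. The script was tested on simulated data. Alternatives covered pseudocount, filter, scaling, trend, voom, a minimum fold, a replicate block, GC and length trends, and each library left out. Most changed 1 choice at a time. A replicate block was also joined with removal of GC and length trends. Voom changed several choices together, with recovered fragments in place of FPKM, its own scaling and weighting, and no trend in limma's own step. The setting with nuclear genes only dropped organelle genes, rescaled the libraries and filtered again.

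The members and lists were chosen with earlier results of these data known. All 10 members were named, every tested gene of the m6A and S-adenosylmethionine lists could be, and for marker lists up to 2 genes with the largest change and 2 with the highest level. Names and positions are from RefSeq's TAIR10.1 annotation, which lists *MTB* and *VIR* as EMB1691 and EMB2016 and *HAKAI*, *ALKBH9B* and *ALKBH10B* by locus only; these 5 names go by the locus list that defined the set. The longest run of a member with any other gene was searched on both strands in all annotated transcripts, leaving out overlapping loci. Runs between pairs of members and between related genes of the other lists were searched in the sense direction only.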

Additional observations from a re-analysis of the deposited data

How the results depend on the processing

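Of the 4 m6A genes called higher, *ALKBH10B* and *ECT2* kept their call in 15 of 16 alternatives, *ECT4* in 11 and *ECT3* in 10, and no alternative called any of the 10 lower. The count of the 10 genes called higher was 2 without the mean-variance trend and 0 against a fold of 1.5. Calls of *ECT3* and *ECT4* were also lost when certain libraries were left out, as given above. The whole table moved as well: 3648 genes were higher in the main test, with more in 5 of 16 alternatives and fewer in 11. The setting without the trend was among those with fewer, so the drop among the 10 genes may in part be a shift of the whole table. Against a fold of 1.5 the whole table gave 120 genes higher and 332 lower. Under that test no other YTH-domain gene was called higher or lower, the counts being 0 and 0, and S-adenosylmethionine cycle genes gave 0 higher and 0 lower. Voom gave 2 other YTH-domain genes higher, 5 cycle genes higher and 1 other methyltransferase gene lower. Quantile normalization gave 5 cycle genes higher, and without the trend 2 were higher and 1 was lower. With each library left out, other YTH-domain genes higher ranged from 0 to 1, other methyltransferase genes lower from 0 to 1.

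Directions reversed only for genes that passed no test. With GC and length trends removed, with or without the replicate block, *FIP37* was at 0.0042 and *VIR* at -0.010. After median-of-ratios rescaling *ECT8* was at -0.025, *ECT10* at -0.0062, *SAHH2* at -0.021 and *ADK1* at -0.022, and with quantile normalization *ECT10* was at -0.008 and AT2G48080 at -0.0066. With each library left out in turn the log2 changes ranged from -0.139 to 0.092 for *FIP37*, -0.133 to 0.014 for *HAKAI*, -0.042 to 0.163 for *ALKBH9B*, -0.052 to 0.062 for *ECT8*, -0.042 to 0.208 for *ECT9*, -0.080 to 0.123 for *ECT10* and -0.016 to 0.038 for *SAHH2*. The cause was not tested.

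The labels do not say whether replicate numbers pair the libraries. The differences between replicates 1 and 2 of the 2 genotypes correlated at -0.0434 over genes. With 1 such difference per genotype, this value cannot decide whether libraries were prepared in pairs. With the replicate block *MTA* passed (log2 change 0.25, adjusted p = 0.0155), and 5 of the 10 genes were higher. The whole table also gave more genes higher with that block than in the main test. Leaving out a library leaves 1 library in a group, which is then assumed to vary like the other genotype.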
